A study of Mus musculus with 2 samples.

Results

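Sertoli marker barcodes were cell barcodes of 2 droplet-based single-cell RNA-seq libraries of mouse testis that carried transcripts typical of Sertoli cells. A barcode qualified with 500 or more unique molecular identifiers (UMIs, each standing for 1 captured RNA molecule), at most 10% of them mitochondrial, and 3 or more detected genes among Cst9, Cst12, Tsx, Rhox5, Rhox8, Defb36, Wfdc10 and Etd. These 8 genes also had to make up 3 or more times the share they take of the UMIs of all barcodes of both libraries, which was 0.0359%. The members were thus chosen by their own measured UMI counts, so the levels of these 8 genes are a description and no finding. The rule selected 4654 of 38009 barcodes, 2979 from the Dot1L cKO library and 1675 from the control library. The number of barcodes within the UMI and mitochondrial limits was 18451 in the Dot1L cKO library and 15898 in the control library, and those outside the rule are called other barcodes below.

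The Dot1L cKO library came from whole testis of mice of genotype Dot1L fl/delta with Ddx4-Cre, and the control library from whole testis of Dot1L fl/+ mice without Cre. Dot1L (gene symbol Dot1l) is the histone methyltransferase of lysine 79 of histone H3, and the study asks what its loss in germ cells does to spermatid differentiation. The Ddx4 promoter drives Cre in germ cells and not in Sertoli cells. Mice of both genotypes carry 1 floxed allele. Besides the germ cell deletion, all cells of the cKO mice carry 1 delta allele, while all cells of the controls carry 1 wild-type allele and neither a delta allele nor Cre. The labels give neither the age of the mice nor how many testes or animals went into each library. With 1 library per genotype no difference between genotypes could be tested: intervals below are exact 95% intervals that cover counting error only, and a gene is called at a 2-fold difference.

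Sertoli cells are the somatic nurse cells of the seminiferous tubule. They hold germ cells of every stage in folds of their membrane, seal the adluminal compartment with the blood-testis barrier, secrete transport and signalling proteins, and engulf the residual bodies that spermatids shed. They answer to follicle-stimulating hormone and to androgen. Their large, branched shape makes them hard to free whole from the tubule, and cell suspensions of testis are known to carry free RNA of spermatids.

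In Dot1L cKO barcodes the 8 genes of the rule took 0.591% of the UMIs, against 0.490% in control barcodes. Between 500 and 1000 UMIs per barcode the order was the reverse, with 0.787% in cKO and 0.851% in control barcodes. Cst9 and Cst12, nearby cystatin-family genes on chromosome 2 (chr2:148835147-148838738 and chr2:148789361-148793546, mm10, plus strand), were the most abundant. Cst9 had 1834 CPM (UMIs of the gene scaled to a fixed total of UMIs per library, 1e+06) in cKO barcodes and 1590 CPM in control barcodes. Cst12 had 1575 CPM in cKO barcodes and 1189 CPM in control barcodes. Both genes lay in at least 81.9% of the barcodes of each library. Tsx had 694 CPM in cKO and 558 CPM in control, and the beta-defensin gene Defb36 had 552 CPM in cKO and 516 CPM in control. The X-linked homeobox genes were lower: Rhox8 had 323 CPM in cKO barcodes and 244 CPM in control barcodes, and Rhox5, which androgen induces in Sertoli cells, had 172 CPM in cKO and 102 CPM in control. Etd had 421 CPM in cKO barcodes and 396 CPM in control barcodes, and Wfdc10, of the whey acidic protein family, had 339 CPM in cKO and 304 CPM in control. Each of the 8 stood far above the other barcodes, between the 55.2 times of Defb36 in the cKO library and the 43.8 times of Rhox5 in the control library. These are values over barcodes of all depths. Other barcodes of 500 to 1000 UMIs held more of the 8 genes together, 0.122% in the cKO and 0.101% in the control library.

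Sertoli markers that the rule did not use were also high in these barcodes. The summed level of 13 such markers was 3284 CPM in cKO barcodes and 1997 CPM in control barcodes, against 120 CPM in the other barcodes of the cKO library and 64.2 CPM in those of the control library. Between 500 and 1000 UMIs per barcode both gaps were smaller. There the 13 markers took 0.321% of UMIs in cKO Sertoli marker barcodes, against 0.0925% in other cKO barcodes. In the control library the shares were 0.311% and 0.0549%. In Sertoli marker barcodes of 10000 UMIs and up the markers took 0.248% in cKO and 0.0921% in control. At least 1 UMI of the 13 markers was found in 87.0% of cKO barcodes (median 1172 UMIs) and 79.8% of control barcodes (median 1046 UMIs). At 500 UMIs per barcode the share was 66.1% in cKO and 57.7% in control barcodes, against 12.6% in other cKO barcodes and 8.67% in other control barcodes, which were not selected for any cell type. Ctsl, a secreted cathepsin, had 1530 CPM in cKO barcodes and 929 CPM in control barcodes. Clu, the abundant secreted chaperone clusterin, had 928 CPM in cKO and 570 CPM in control. The receptor gene Amhr2, for anti-Müllerian hormone, had 253 CPM in cKO and 168 CPM in control, and the inhibin subunit gene Inha had 175 CPM in cKO and 122 CPM in control. Cldn11, the claudin of the barrier, had 105 CPM in cKO barcodes and 69.6 CPM in control barcodes, which was 45.7 times the other barcodes in the cKO and 43.7 times in the control library. The transcription factor gene Sox9 had 57.4 CPM in cKO and 27.6 CPM in control, at 37.8 times the other barcodes in the cKO and 37.6 times in the control library. The immature-stage marker Amh had no UMI in control barcodes, where a count of 0 allows up to 3 UMIs, and Fshr, the receptor of follicle-stimulating hormone, had too few UMIs in both libraries together to be measured (under 50).

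**Figure D1:**
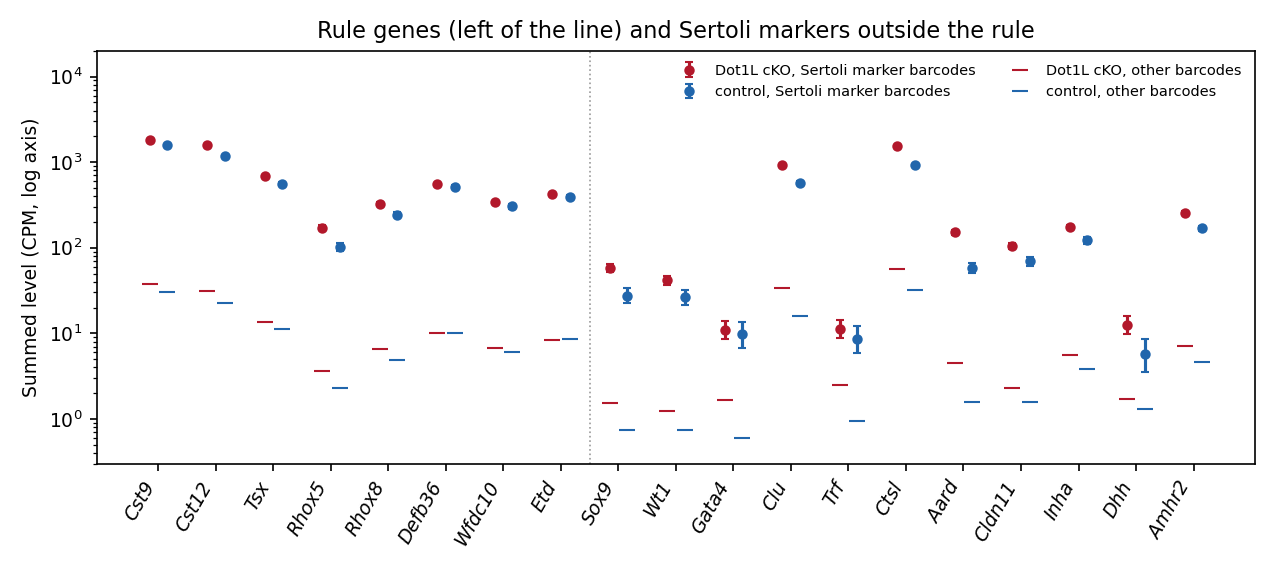
Summed level in CPM (log axis) of the 8 rule genes, left of the dotted line, and of 11 measured Sertoli markers outside the rule, for Dot1L cKO (red) and control (blue). Points are Sertoli marker barcodes with exact 95% Poisson intervals, dashes are the other barcodes of the same library; every gene lies above its dash, Sox9 at 57.4 CPM in cKO and 27.6 CPM in control barcodes.

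Further genes stood far above the other barcodes, as a description of the same barcodes. Among the 15 leading genes, the glutaminyl cyclase gene Qpct had 882 UMIs in cKO and 371 UMIs in control barcodes, at 40.5 times the other barcodes in the cKO and 44.9 times in the control library. Cstdc1, another cystatin-family gene beside Cst9 and Cst12 (chr2:148782009-148785937), had 864 cKO and 487 control UMIs. The orphan nuclear receptor gene Nr0b1 had 338 UMIs in cKO barcodes and 116 UMIs in control barcodes, Shbg, which encodes the androgen-binding protein, had 103 cKO and 42 control UMIs, and Sox8, the close relative of Sox9, had 56 cKO and 16 control UMIs. With a bound of 2 times the other barcodes in both libraries and 50 UMIs over both, 1150 genes were Sertoli-enriched. They took 10.8% of the UMIs of cKO barcodes and 7.87% of those of control barcodes, against 2.77% in other cKO and 2.05% in other control barcodes. Abundant mitochondrial genes, mt-Co3, mt-Co1, mt-Atp6 and mt-Co2, were among the 1150. Of the 633012 UMIs of the 1150 genes in cKO barcodes mt-Co3 alone gave 57755, and of the 290505 in control barcodes 31986.

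The most abundant RNAs of the barcodes were nevertheless those of spermatids. Prm2, Prm1, Tnp2 and the mitochondrial mt-Co3 led in the cKO library, and Prm1, Prm2, Tnp2 and Tnp1 in the control library. Prm1 and Prm2 encode protamines and Tnp1 and Tnp2 transition proteins, which replace histones in condensing spermatid heads. Since each UMI is a 3′ tag of 1 molecule, these levels do not scale with transcript length. The barcodes are therefore called Sertoli marker barcodes here, not Sertoli cells.

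Most of the barcodes were shallow. The median was 1172 UMIs and 832 genes in cKO barcodes and 1046 UMIs and 705 genes in control barcodes, against 3137.5 UMIs in other cKO and 3628 UMIs in other control barcodes. In the cKO library 2487 of them (83.5%) held under 2500 UMIs, and in the control library 1381 (82.4%). At the other end, 187 cKO and 145 control barcodes held 5000 or more, up to 47085 UMIs in cKO and 68084 UMIs in control; no doublet caller was run. The mitochondrial share of UMIs was 3.94% in cKO and 3.34% in control barcodes, against 1.82% in other cKO and 1.42% in other control barcodes. The libraries shared 102 barcode sequences, of which none was selected in both.

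Barcodes on both sides of the thresholds on marker share, gene number and mitochondrial share held Sertoli markers. Barcodes at 3 to 4 times the pooled rule gene share, just inside, numbered 105 in the cKO and 91 in the control library and held 899 CPM in cKO and 465 CPM in control of the Sertoli markers outside the rule. Those at 2 to 3 times, just outside, numbered 166 in the cKO and 157 in the control library and held 477 CPM in cKO and 355 CPM in control. Barcodes with exactly 3 rule genes (966 cKO, 637 control) held 1759 CPM in cKO and 1540 CPM in control, and those with 2 genes and a sufficient share, left out, (1225 cKO, 842 control) held 1382 CPM in cKO and 1135 CPM in control. The mitochondrial limit removed 766 cKO and 593 control barcodes that met the rest of the rule, with 6066 CPM of the same markers in cKO and 5106 CPM in control.

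Markers of other somatic cell types summed to under 100 CPM each. Of 8 Leydig cell markers, none was at 0 in either library, and they summed to 64.6 CPM in cKO and 18.4 CPM in control barcodes, against 170 CPM in other cKO and 41.6 CPM in other control barcodes. The 7 macrophage markers summed to 79.5 CPM in cKO and 26.0 CPM in control, against 74.99 CPM in other cKO and 34.8 CPM in other control barcodes, and C1qc and Csf1r were at 0 in control barcodes. The 8 mesenchymal and peritubular markers reached 28.2 CPM in cKO and 18.4 CPM in control, against 33.8 CPM in other cKO and 11.02 CPM in other control barcodes. The 5 endothelial markers stood slightly above the other barcodes, at 12.2 CPM in cKO and 8.94 CPM in control, against 9.99 CPM in other cKO and 6.42 CPM in other control barcodes. The 5 red blood cell genes summed to 23.4 CPM in cKO and 25.5 CPM in control, against 62.9 CPM in other cKO and 24.95 CPM in other control barcodes, and all 4 globin genes were at 0 in control barcodes. The part of these cells in the results below was not tested.

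Spermatid marker RNA made up 7.72% (7.70 to 7.74) of the UMIs of cKO Sertoli marker barcodes and 15.05% (15.01 to 15.08) of those of control barcodes. These are the summed shares of 6 round and 13 elongating spermatid markers, of which Tnp1, Tnp2, Prm1 and Prm2 alone gave 6.50% in cKO and 13.4% in control barcodes. RNA of other spermatid genes is not counted, so the shares are no total of spermatid RNA. The other barcodes of the same libraries, spermatids included, held 5.58% in cKO and 8.81% in control, so that the Sertoli marker barcodes stood at 1.38 times the other barcodes in the cKO library and 1.71 times in the control library. No Sertoli marker barcode was free of these markers.

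The barcodes richest in spermatid marker RNA give a scale for this level. Taken were the top 10% of the barcodes within the UMI and mitochondrial limits by the share of the same round and elongating markers. Since this share chose them, their higher level is a description and no finding. They numbered 1846 in the cKO library and 1590 in the control library, and held 26.0% spermatid marker UMIs in cKO and 35.04% in control. The Sertoli marker barcodes stood at 29.7% of that level in the cKO library and 42.9% in the control library. Among the top 10% were 80 of the cKO and 51 of the control Sertoli marker barcodes. The median barcode held 4.33% in the cKO and 8.71% in the control library, with a 5th to 95th percentile range of 1.53% to 18.5% in cKO and 3.53% to 27.1% in control.

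At equal depth, below 5000 UMIs, the spermatid share of Sertoli marker barcodes was close to that of the other barcodes. Between 500 and 1000 UMIs per barcode, elongating spermatid markers took 4.74% in 1044 Sertoli marker barcodes of the cKO library and 4.87% in 3323 other barcodes. In the control library the values were 8.86% in 773 Sertoli marker barcodes and 8.72% in 3579 other barcodes. Between 1500 and 2500 UMIs per barcode they were 4.72% against 5.24% in the cKO library and 8.14% against 8.18% in the control library. The 2 kinds of barcode separated above 10000 UMIs, with 8.57% against 4.32% in the cKO library and 19.7% against 7.21% in the control library. Few barcodes of that depth were selected, 59 in the cKO and 57 in the control library. With each barcode thinned to 500 UMIs, round and elongating markers together took 5.62% of cKO and 10.3% of control Sertoli marker UMIs, against 6.92% in other cKO and 11.2% in other control barcodes.

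**Figure D2:**
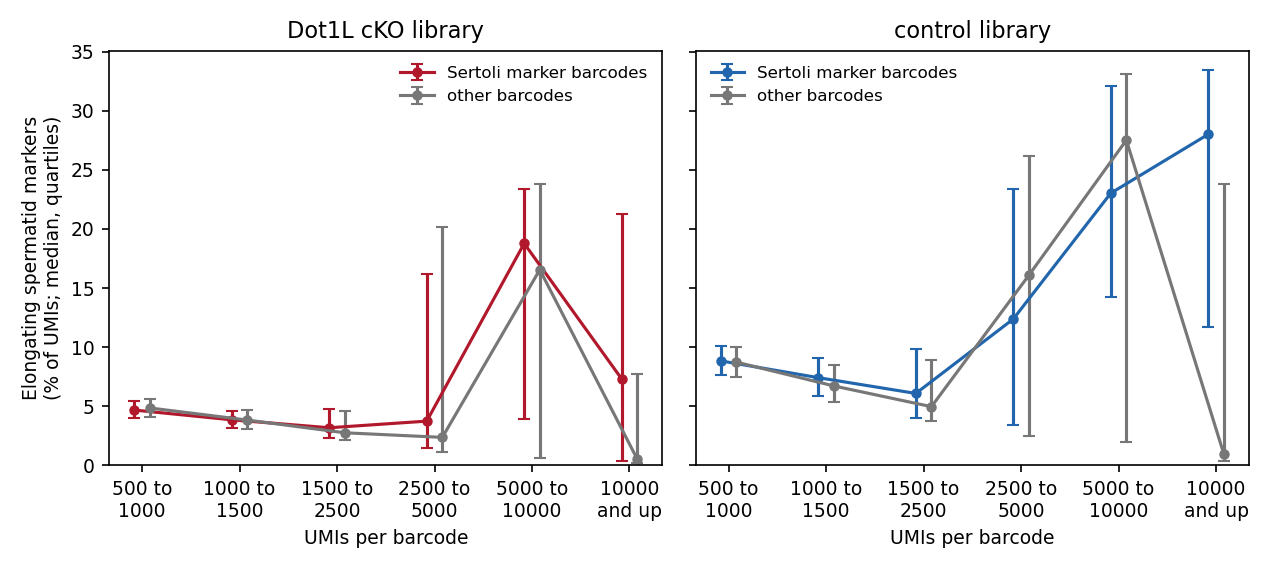
Share of UMIs from 13 elongating spermatid markers per barcode (median and quartiles, %) by UMIs per barcode, for Sertoli marker barcodes (coloured) and other barcodes (grey) of the Dot1L cKO library (left) and the control library (right). Below 2500 UMIs the 2 kinds of barcode lie together, and the control library lies above the cKO library in both.

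The round spermatid markers were far lower than the elongating ones. They took 0.0953% of UMIs in cKO and 0.0735% in control Sertoli marker barcodes, against 0.0981% in other cKO and 0.105% in other control barcodes. Round spermatid genes encode acrosomal and sperm membrane proteins such as Spaca1 and Acrv1. Spaca1 had 357 CPM in cKO barcodes and 228 CPM in control barcodes, and Acrv1 had 143 CPM in cKO and 133 CPM in control.

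The summed spermatid share was lower in the bins with more Sertoli signal, both being shares of the same UMIs. In cKO barcodes with rule genes at 3 to 6 times the pooled share, elongating markers took 11.3%, and at 48 times and more they took 2.65%. In control barcodes the same markers took 19.8% in the lowest and 5.54% in the highest bin. Sertoli markers outside the rule went the other way: they took 0.0893% of UMIs in the lowest and 1.32% in the highest bin of the cKO library, and 0.0701% in the lowest and 1.16% in the highest bin of the control library. The top bin held 150 cKO and 92 control barcodes. Depth differed between bins: the median was 3671 UMIs in cKO and 4652 UMIs in control barcodes of the lowest bin, and 1019.5 to 1429.5 UMIs in cKO and 882 to 1260 UMIs in control barcodes of the others. Per barcode, the median elongating share changed little between 6 and 48 times, at 3.99% to 4.40% in cKO and 8.40% to 8.82% in control barcodes, and was 2.81% in cKO and 5.98% in control barcodes of the top bin. The part of depth in the trend was not tested.

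**Figure D3:**
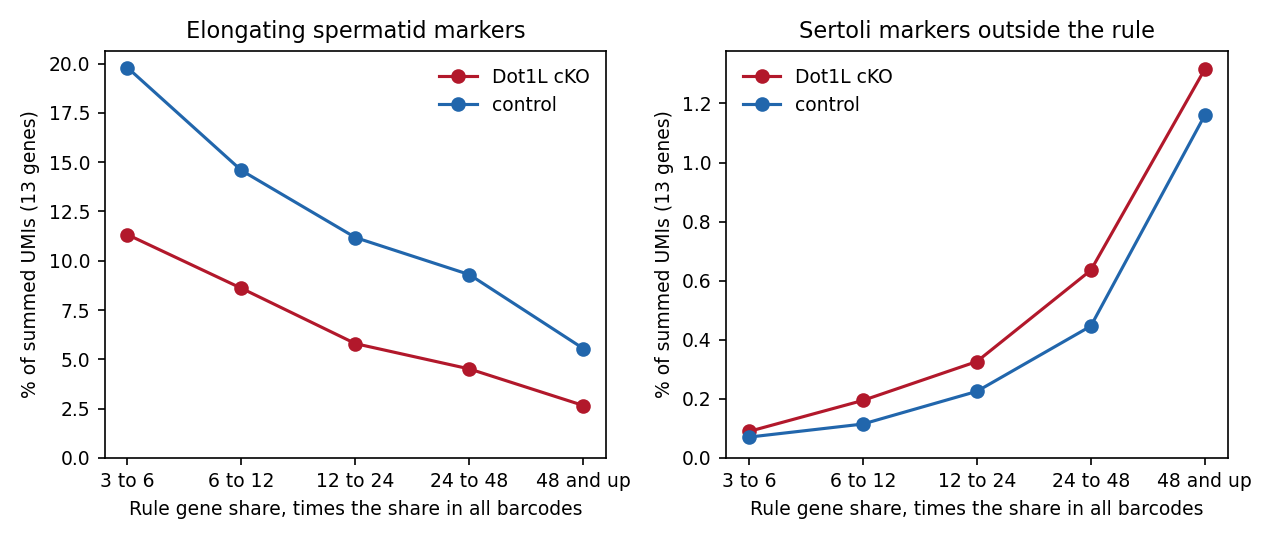
Share of summed UMIs (%) from 13 elongating spermatid markers (left) and 13 Sertoli markers outside the rule (right), by how many times the pooled share the 8 rule genes took in a barcode, for Dot1L cKO (red) and control (blue). Elongating markers decline to 2.65% in cKO and 5.54% in control barcodes in the top bin, where Sertoli markers reach 1.32% in cKO and 1.16% in control.

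Sertoli marker barcodes were a larger share of the cKO library. They made up 16.1% (15.6 to 16.7) of the cKO barcodes within the limits and 10.5% (10.1 to 11.02) of the control barcodes, a log2 ratio of 0.62 (0.53 to 0.70). By UMIs their share was 3.93% in the cKO and 2.43% in the control library. The share is one of barcodes selected at a fixed marker level, and whether Sertoli cells were more frequent, or germ cells less so, cannot be told apart. The rule takes the marker share over all UMIs, spermatid RNA included, and needs 3 detected genes; the median depth of all barcodes was 2188 UMIs in the cKO and 2383.5 UMIs in the control library. The part of either in the difference was not tested.

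Spermatid RNA was lower in cKO than in control Sertoli marker barcodes, with a log2 ratio of -0.96 (-0.968 to -0.957) for the 19 markers together. Prm1 fell to 19339 CPM in cKO barcodes, against 49744 CPM in control barcodes, a log2 ratio of -1.36. The log2 ratio of Prm1 in the other barcodes was -1.04. Tnp1 fell to 6557 CPM in cKO barcodes, against 15448 CPM in control barcodes (-1.24, and -0.85 in the other barcodes). Tnp2, with 10823 CPM in cKO and 21608 CPM in control, missed the 2-fold bound at -0.997, and Prm2, with 28270 CPM in cKO and 47358 CPM in control, was at -0.74. Prm1 and Tnp1 were the 2 of 13 elongating markers called lower, and the background of all measured genes called lower was 1.29%. The kinase gene Tssk6 was the 1 called higher, beside 13.5% of all measured genes, at 801 CPM in cKO and 71.8 CPM in control barcodes, and its log2 ratio was 3.48 here and 3.96 in the other barcodes.

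Dot1l had 72 UMIs (12.2 CPM) in cKO barcodes and 107 UMIs (29.0 CPM) in control barcodes, a log2 ratio of -1.24 (-1.70 to -0.80). In the other barcodes the log2 ratio was -1.16. The Dot1l level was 0.493 times that of the other barcodes in the cKO and 0.524 times in the control library. A single control barcode gave 13 of the UMIs. The part of germ cell RNA in this ratio was not tested. The labels do not give which part of the gene is deleted, and a 3′ tag outside it does not check the deletion. Of the 5 other measured genes of DOT1L and its partners none was called: Mllt10 had 904 UMIs in cKO and 453 UMIs in control barcodes (0.32), and Aff4 had 208 cKO and 82 control UMIs (0.67).

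Across all genes the cKO barcodes were shifted upwards. Of 11354 measured genes, those with 50 or more UMIs in both libraries together, 1537 (13.5%) stood 2-fold or more higher in cKO barcodes and 147 (1.29%) 2-fold or more lower, with a median log2 ratio of 0.36. Among the 1150 Sertoli-enriched genes 253 (22%) were higher and 4 (0.348%) lower, with a median of 0.63. The other barcodes had a median log2 ratio of 0.69 over the same 1150 genes. CPM values are shares of 1 total, of which spermatid markers took less in cKO barcodes, and the part of this in the shift was not tested. Scaled to the UMIs of Sertoli-enriched genes, mitochondrial ones included, which lowers each log2 ratio by 0.45, 100 of the 1150 (8.7%) were higher and 10 (0.87%) lower. On that scale the median of all measured genes was -0.09, with 602 (5.3%) higher and 533 (4.69%) lower. With every barcode thinned to 500 UMIs, which leaves fewer genes measured, 76 Sertoli-enriched genes were higher and 4 lower, and with only barcodes under 2500 UMIs 104 were higher. Over all Sertoli function lists, 34 of 139 measured genes (24.5%) were called higher, and the shares of all measured and of Sertoli-enriched genes above are the background for each list below; 14 of the 34 kept the call on the Sertoli-enriched scale and 22 when thinned.

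Identity genes of Sertoli cells were called in part, and none outside the rule stayed past 2-fold on the Sertoli-enriched scale. The log2 ratios of the 8 rule genes ran from 0.09 for Etd to 0.76 for Rhox5, with none past 2-fold, a description since they chose the barcodes. Among 11 measured Sertoli markers outside the rule 3 (27.3%) were called higher, beside 13.5% of all measured and 22% of Sertoli-enriched genes, with a median of 0.65. In barcodes of 500 to 1000 UMIs all 13 markers together took similar shares, 0.321% in cKO and 0.311% in control. Aard had 896 UMIs in cKO barcodes and 215 UMIs in control barcodes (log2 ratio 1.39, 1.17 to 1.61). Sox9 had 338 cKO and 102 control UMIs (1.06), and Dhh, the hedgehog ligand by which Sertoli cells address Leydig and peritubular cells, had 74 cKO and 21 control UMIs (1.14). Gata4, with 65 cKO and 36 control UMIs, gave 0.18 (-0.43 to 0.81).

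Among 11 transcription factor genes of Sertoli cells 3 (27.3%) were called higher and none lower, with a median of 0.65. Among these, besides Sox9, was Sox8, at 56 UMIs in cKO and 16 UMIs in control barcodes (1.13). None of the 3 stayed past 2-fold on the Sertoli-enriched scale or when thinned. Wt1, which keeps the Sertoli identity, had 245 cKO and 98 control UMIs (0.65), Nr0b1 gave 0.87, and Zfpm2, a partner of GATA4, had 73 cKO and 64 control UMIs (-0.48, -0.99 to 0.02).

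Of 5 measured genes of follicle-stimulating hormone, inhibin and AMH signalling none was called. Inha gave 0.52, Amhr2 0.59 and the inhibin beta B gene Inhbb, with 63 UMIs in cKO and 25 UMIs in control barcodes, 0.66. Of 6 genes known to respond to androgen in Sertoli cells 3 were called higher, with a median of 0.97, beside 13.5% of all measured genes; 1 of the 3 stayed past 2-fold on the Sertoli-enriched scale and 1 with only barcodes under 2500 UMIs. The dopamine receptor gene Drd4 stood out, with 190 UMIs in cKO barcodes and 12 UMIs in control barcodes (3.31, 2.47 to 4.29). Gpd1, a glycerol phosphate dehydrogenase, had 80 cKO and 19 control UMIs (1.40). Eppin, a protease inhibitor gene, had 1026 cKO and 403 control UMIs (0.67), and the claudin gene Cldn3, which androgen induces in Sertoli cells, had 104 cKO and 87 control UMIs (-0.42, -0.84 to 0.01).

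Of 4 measured ligand genes Wnt6 and Dhh were called higher. Wnt6 had 112 UMIs in cKO barcodes and 15 UMIs in control barcodes (2.23, and 2.15 in the other barcodes). Kitl, the ligand of the spermatogonial receptor KIT, had 194 cKO and 65 control UMIs (0.90), and the Notch ligand gene Jag1 had 35 cKO and 32 control UMIs (-0.54).

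Secreted and transport proteins had 3 of 13 measured genes called higher and a median of 0.50, where the other barcodes had 1.11. Timp1, an inhibitor of metalloproteinases, had 115 UMIs in 93 cKO barcodes and none in control barcodes, at least 4.27 higher on the log2 scale by its exact 95% interval. With 3 UMIs taken as the floor for the control library the log2 ratio was 4.59, and 2.54 when thinned. The protease inhibitor gene Serpina5 had 288 cKO and 55 control UMIs (1.72), and the prosaposin gene Psap had 553 cKO and 129 control UMIs (1.43). The major products were not called: Ctsl gave 0.72, Clu 0.70, Sparc 0.49, the prostaglandin synthase gene Ptgds 0.50 and cystatin C, Cst3, 0.33. For Clu, Sparc, Ptgds and Cst3 the log2 ratio in the other barcodes was larger, at 1.11, 1.34, 1.91 and 0.93. The metallothionein genes Mt1 (-0.10) and Mt2 (-0.25) were slightly lower in cKO barcodes by value and were not called.

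Barrier and junction genes had 4 of 14 called higher, with a median of 0.51. These were the tight junction gene Cgn at 128 UMIs in cKO and 27 UMIs in control barcodes (1.57), Ctnna1 at 343 cKO and 84 control UMIs (1.36), Gja1, the connexin 43 gene, at 308 cKO and 76 control UMIs (1.35), and Ctnnb1 at 192 cKO and 56 control UMIs (1.10). All 4 stayed past 2-fold when thinned, and 2 with only barcodes under 2500 UMIs. On the Sertoli-enriched scale 1 did, and 1 did with a mitochondrial share up to 20%. Cldn11 gave 0.59, Cdh2 0.67 and Tjp1 0.25. The cytoskeleton list had 2 of 10 called, Tuba1a with 1245 cKO and 293 control UMIs (1.41) and Ezr with 63 cKO and 4 control UMIs (3.30); vimentin, Vim, gave 0.79.

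Genes for taking up and degrading residual bodies were called in part. Of 11 phagocytosis genes 4 were higher, with a median of 0.77: the bridging ligands Gas6 with 233 UMIs in cKO and 50 UMIs in control barcodes (1.55) and Mfge8 with 329 cKO and 97 control UMIs (1.09), the phosphatidylserine binder Anxa5 with 192 cKO and 43 control UMIs (1.49), and Rac1 with 137 cKO and 37 control UMIs (1.22). The receptor tyrosine kinase genes Tyro3 (0.81) and Axl (0.66) were not called, nor was Scarb1 (0.20). Of 11 lysosome genes 4 were higher: Ctsb with 225 cKO and 51 control UMIs (1.47), Cd63 with 419 cKO and 96 control UMIs (1.45), Psap and Ctsd with 126 cKO and 39 control UMIs (1.02). When thinned, 1 gene of each list stayed past 2-fold, and Ctsd was at -0.01.

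**Figure D4:**
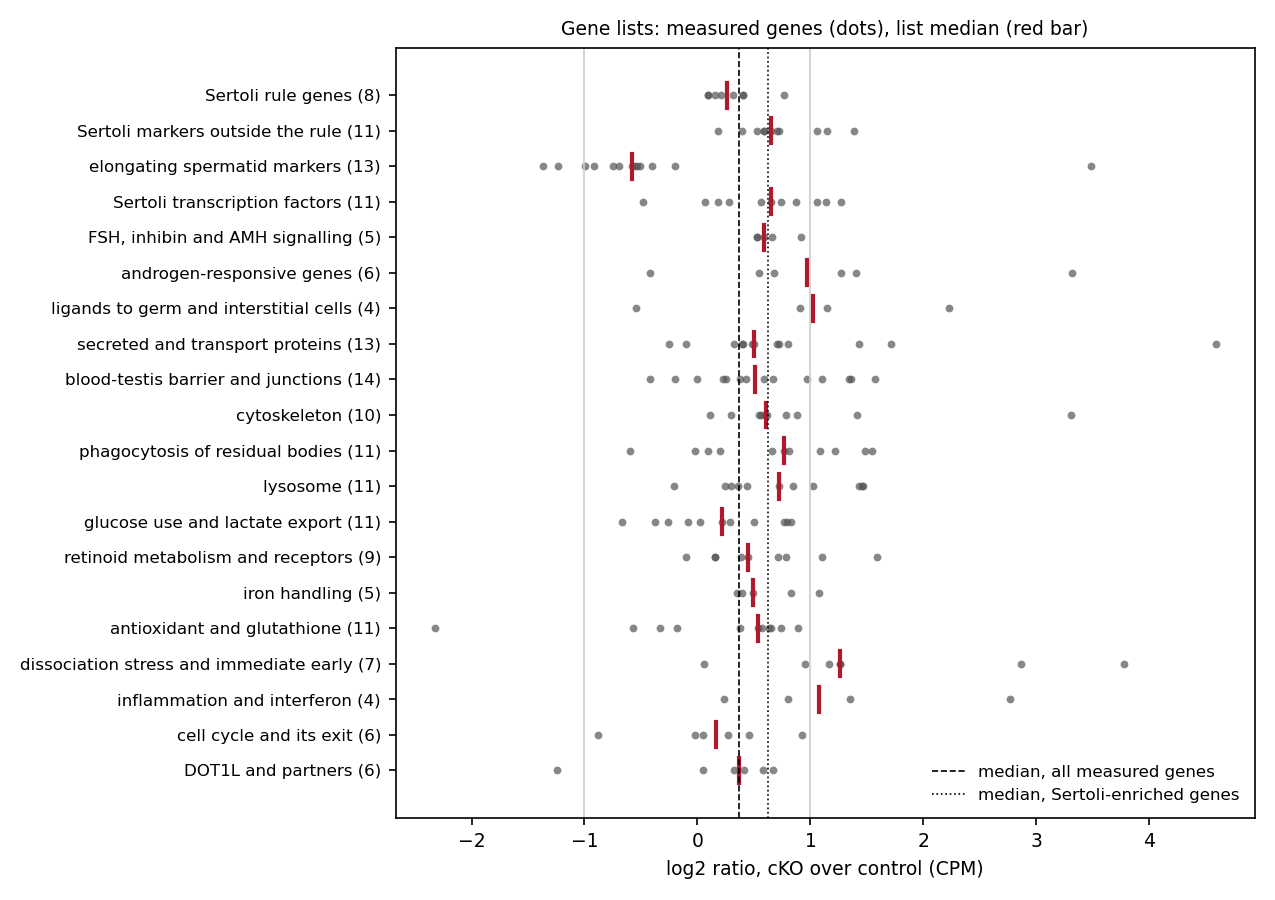
Log2 ratio (cKO over control, CPM) of every measured gene of the Sertoli lists, the elongating spermatid markers and DOT1L with its partners in Sertoli marker barcodes (dots) with the list median (red bar) and the number of measured genes in brackets. The dashed line marks the median of all measured genes (0.36), the dotted line that of Sertoli-enriched genes (0.63), and grey lines the 2-fold bounds; of the lists drawn, the stress list has the highest median (1.26) and elongating spermatid markers the lowest (-0.58).

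Sertoli cells burn glucose to lactate, which they pass to germ cells. None of 11 genes of this list was called, and their median was 0.22, below that of all measured genes. Ldha, for lactate production, had 2137 UMIs in cKO barcodes and 1151 UMIs in control barcodes (0.22), Ldhb 3373 cKO and 1498 control UMIs (0.50), and Hk1 948 cKO and 945 control UMIs (-0.67). Among the retinoid genes the receptor gene Rxrb was called, with 48 cKO and 14 control UMIs (1.10); Aldh1a1 gave 0.72 and Aldh1a2 0.15. Of 5 iron genes the haem oxygenase gene Hmox1 was called, with 101 cKO and 30 control UMIs (1.08), while Trf, for transferrin, gave 0.39. None of 6 cell cycle genes was called.

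Among 11 antioxidant and glutathione genes none was called higher, and Gstp1, a glutathione transferase gene, was called lower. It had 117 UMIs in 101 cKO barcodes and 368 UMIs in 294 control barcodes, a log2 ratio of -2.33 (-2.64 to -2.02), beside -1.91 in the other barcodes. Its 3′ end shares 91.4% of its 40-nt words with other annotated transcripts, so reads may be divided between copies. The related genes Gstm1 (0.89), Gsta4 (0.74) and Gstm2 (0.54) were not called.

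Among the lists of Sertoli cell functions, that of dissociation stress and immediate early genes had the highest median, 1.26, with 5 of 7 measured genes (71.4%) called higher, beside 13.5% of all measured genes. On the Sertoli-enriched scale 2 of the 5 stayed past 2-fold. Hspb1, the small heat shock protein HSP27, had 1939 UMIs in 1030 cKO barcodes and 89 UMIs in 84 control barcodes (3.77, 3.47 to 4.095). The single richest cKO barcode gave 121 of its UMIs. Jun had 93 cKO and 8 control UMIs (2.87), Fos 42 cKO and 11 control UMIs (1.26), Ier2 107 cKO and 28 control UMIs (1.26) and Junb 125 cKO and 35 control UMIs (1.16). Dnajb1, a co-chaperone gene, gave 0.06. In the other barcodes the list's median was 1.84, where Hspb1 gave 1.46 and Fos 2.72. Handling of each library and genotype cannot be told apart. Of 4 measured inflammation genes Lcn2, at 435 UMIs in cKO and 40 UMIs in control barcodes (2.77, and 3.07 in the other barcodes), and B2m, at 207 cKO and 51 control UMIs (1.35), were called higher.

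Among Sertoli-enriched genes with 100 or more UMIs, the 15 highest ratios ran from 2.23 to 4.36. Pcsk1n, an inhibitor of prohormone convertase 1, led with 687 UMIs in 481 cKO barcodes and 21 UMIs in 21 control barcodes (4.36, 3.73 to 5.06). The log2 ratio of Pcsk1n in the other barcodes was 2.23. Cpe, another gene of prohormone processing, encoding carboxypeptidase E, had 635 cKO and 65 control UMIs (2.61, and 1.14 in the other barcodes). Tnfrsf12a, the TWEAK receptor gene, had 126 UMIs in cKO and 9 UMIs in control barcodes (3.13), and the secreted neudesin gene Nenf had 882 cKO and 65 control UMIs (3.09). Chchd10, of the mitochondrial intermembrane space, had 4450 cKO and 516 control UMIs (2.44), and Lactb had 325 cKO and 25 control UMIs (3.03). Tomm40, the import channel of the outer mitochondrial membrane, had 284 cKO and 33 control UMIs (2.43), and Marc2, a mitochondrial reductase gene, 682 cKO and 91 control UMIs (2.23). All 15 genes stayed 2-fold or more higher under each of 12 other settings, which vary the barcode rule, the depth and the scaling. The genes were picked as the highest of these same UMIs, and rescaling lowers each ratio by the same amount. That they stayed is therefore a description and no support.

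The same ratios were taken in the other barcodes, which come from the same 2 libraries. Unc119 was at 3.02 in Sertoli marker barcodes and 2.93 in the other barcodes, Eid1 at 2.61 and 2.67, and Chchd10 at 2.44 and 2.36. Insc, a gene of spindle orientation, had 91 UMIs in 70 cKO barcodes and 9 UMIs in 9 control barcodes (2.66, 1.68 to 3.84), while the other barcodes gave -0.00. Marc2 gave 2.23 in Sertoli marker barcodes and 0.95 in the other barcodes. Over 854 Sertoli-enriched genes with 100 or more UMIs, the log2 ratio in Sertoli marker barcodes minus that in the other barcodes had a median of -0.03. It was 1 or more for 19 genes and -1 or less for 33. The other barcodes held the rule genes too, at levels 43.8 to 55.2 times lower, and the part of free Sertoli cell RNA in their ratios was not tested.

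**Figure D5:**
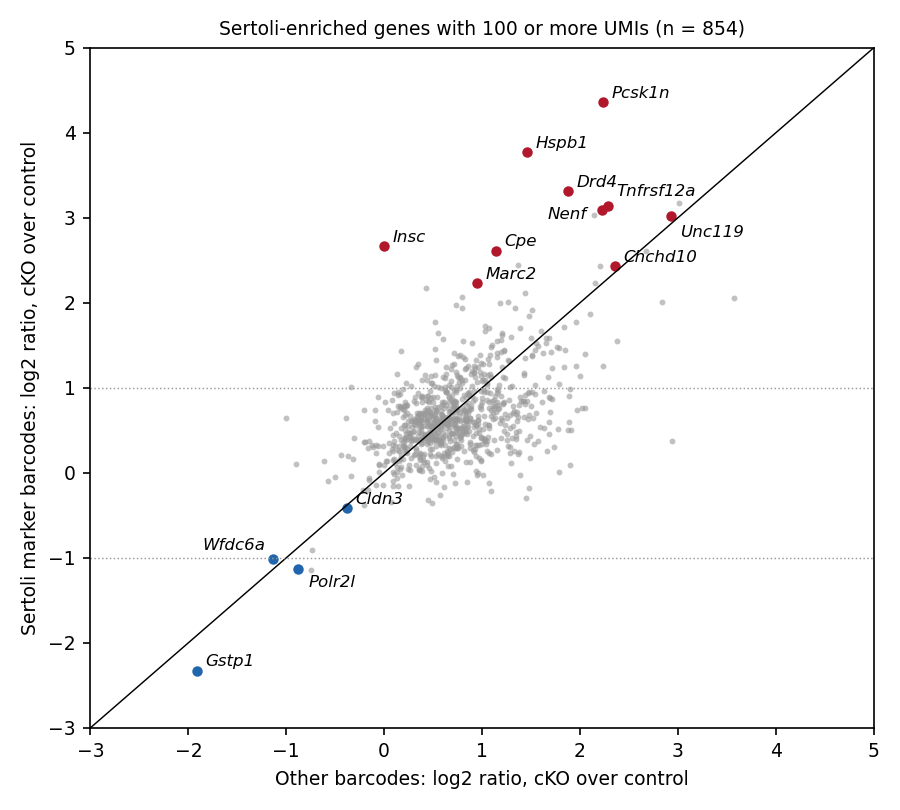
Log2 ratio (cKO over control) of 854 Sertoli-enriched genes in Sertoli marker barcodes (vertical) against the same ratio in the other barcodes (horizontal), with the line of equal ratios and dotted 2-fold bounds. Insc (2.66 against -0.00), Hspb1 (3.77 against 1.46) and Pcsk1n (4.36 against 2.23) lie above it, and Gstp1 (-2.33 against -1.91) lies at the lower end.

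The promoter windows of the 4 genes highest in cKO barcodes among the Sertoli lists and Sertoli-enriched genes are shown, because these genes set the upper end of the comparison. Each holds 300 bases around the RefSeq start (GRCm38.p6), most of them upstream. They lie at chr5:135887669-135887968 for Hspb1, chrX:7919572-7919871 for Pcsk1n, chrX:20869916-20870215 for Timp1 and chr7:141291768-141292067 for Drd4, all on the plus strand. Capitals mark matches, on either strand, to the heat shock element core GAANNTTC in Hspb1, the steroid response half-site AGAACA in Pcsk1n and the SOX core AACAAT in Timp1. No searched motif, these 3 or the TATA box TATAAA and the GATA core AGATAA, was found in the Drd4 window.
Hspb1: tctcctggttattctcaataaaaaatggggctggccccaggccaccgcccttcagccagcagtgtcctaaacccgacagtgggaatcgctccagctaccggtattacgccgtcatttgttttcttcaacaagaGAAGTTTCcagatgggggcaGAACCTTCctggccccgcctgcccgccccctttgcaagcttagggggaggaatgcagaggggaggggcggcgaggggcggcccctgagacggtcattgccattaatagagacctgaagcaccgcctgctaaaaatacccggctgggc
Pcsk1n: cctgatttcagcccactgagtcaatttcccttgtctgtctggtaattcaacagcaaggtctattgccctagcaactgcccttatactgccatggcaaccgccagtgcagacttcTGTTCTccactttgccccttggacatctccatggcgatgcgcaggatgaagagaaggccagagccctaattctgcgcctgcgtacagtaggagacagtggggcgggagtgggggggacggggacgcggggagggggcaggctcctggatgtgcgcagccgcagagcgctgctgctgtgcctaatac
Timp1: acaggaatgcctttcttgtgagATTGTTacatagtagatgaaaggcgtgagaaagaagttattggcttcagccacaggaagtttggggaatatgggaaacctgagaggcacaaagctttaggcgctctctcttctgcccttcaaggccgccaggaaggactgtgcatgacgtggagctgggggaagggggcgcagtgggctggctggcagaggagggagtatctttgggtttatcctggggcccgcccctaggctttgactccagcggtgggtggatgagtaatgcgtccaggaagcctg
Drd4: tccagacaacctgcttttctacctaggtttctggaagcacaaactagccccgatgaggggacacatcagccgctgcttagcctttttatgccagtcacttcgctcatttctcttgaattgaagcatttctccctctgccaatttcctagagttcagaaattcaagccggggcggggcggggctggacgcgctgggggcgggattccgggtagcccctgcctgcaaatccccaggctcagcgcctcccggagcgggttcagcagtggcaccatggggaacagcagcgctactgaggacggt
The heat shock core occurred in 2582 of 32851 promoter windows (7.86%), the steroid response half-site in 18.97% and the SOX core in 10.72%. The motifs did not overlap each other in these windows. A match is a string of letters and not a shown binding site.

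Few Sertoli-enriched genes were lower, 4 in all, of which 1 is the mitochondrial mt-Nd4l (769 cKO and 1065 control UMIs, -1.14), outside the naming rule and named after its value was seen. Besides Gstp1, Polr2l, a shared subunit of the RNA polymerases, had 122 UMIs in cKO and 167 UMIs in control barcodes (-1.13, -1.48 to -0.78). Wfdc6a had 141 cKO and 178 control UMIs (-1.01), and its 3′ end is 79.5% shared with other transcripts. The next lowest, Cldn3 at -0.42 and Pdzd2 at -0.38, missed the bound, and intervals of both included 0.

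Of the 10 highest ratios over all measured genes 1, that of Pcsk1n, was of a Sertoli-enriched gene. Scand1 had 2445 UMIs in cKO barcodes and 48 UMIs in control barcodes (5.00, and 5.14 in the other barcodes), and Rabgef1 had 676 cKO and 22 control UMIs (4.27 and 4.33). In the cKO library Rabgef1 was at 0.838 times and Scand1 at 1.25 times its level in the other barcodes. Tesc had 228 UMIs in cKO barcodes, 44 of them in a single barcode, and 3 UMIs in control barcodes (5.57, 4.01 to 7.86). Its log2 ratio was 1.64 in the other barcodes, and 2.71 to 6.82 in Sertoli marker barcodes under the other settings. Lyz2, a macrophage lysozyme gene, had 206 UMIs in 16 cKO barcodes, 98 of them in a single barcode, and 1 UMI in control barcodes (7.01, 4.52 to 12.3). At the low end stood the spermatid histone genes H2al1a (4 UMIs in cKO and 142 UMIs in control barcodes, -5.82) and H2al1g (6 cKO and 154 control UMIs, -5.36), then Hist2h2aa1 (19 cKO and 376 control UMIs, -4.98). Their 3′ ends are at least 99.4% shared with other transcripts. Ccl5, a chemokine gene, had 8 UMIs in cKO barcodes and 151 UMIs in 21 control barcodes, 129 of them in a single one.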

How the data were processed

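Single-cell 3′ RNA-seq of dissociated whole testis was used, 1 library for Dot1L cKO and 1 for control. The deposited matrices hold whole-number counts of UMIs; Cell Ranger 7.0.0 wrote them, per the file headers, and mm10 and Seurat 4.1.0 are named per the submitters' processing notes. The deposited barcodes start at 500 UMIs, with totals of 156518838 UMIs in the cKO and 155487418 UMIs in the control library. No cell annotation was used, and no doublet caller was run. UMIs of the selected barcodes (5886359 in cKO, 3691108 in control) were summed per library and scaled to CPM. Log2 ratios carry exact conditional binomial intervals, shares Clopper-Pearson intervals, both for counting error only. Genes needed 50 UMIs, both libraries added, to be measured, and were called at 2-fold. Genes of a shared 3′ end (40-nt words in the last 400 nt, GENCODE vM21) are given as uncertain.

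Genes were named by rule: members of the lists by UMIs or ratio, the 15 genes most above other barcodes, the 15 highest and lowest Sertoli-enriched and 10 highest and lowest of all genes with 100 or more UMIs, the 10 most abundant, and Dot1l, Ddx4, Prm1, Prm2, Tnp1 and Tnp2. Predicted, clone, mitochondrial and rule gene symbols were passed over in the ranked lists. A few of the genes so named are not reported here. The barcodes and the 29 lists were chosen with earlier results of these data known. Alternatives varied the UMI, gene, share and mitochondrial limits, the depth (thinning to 500 UMIs), the scaling and the filter on low counts. The ratio code was tested on simulated data. Python 3.11.15, numpy 2.4.6, scipy 1.17.1, pandas 2.3.3 and matplotlib 3.10.9 were used.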

Additional observations from a re-analysis of the deposited data

Results flagged for a closer look

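Insc differed between the 2 kinds of barcode: its log2 ratio of cKO over control was 2.66 in Sertoli marker barcodes, from 91 UMIs in cKO and 9 UMIs in control barcodes, and -0.00 in the other barcodes. It was picked from 854 genes, of which 19 had a gap of 1 or more. In control barcodes Insc stood at 2.09 times the other barcodes, near the bound of 2 times for Sertoli-enriched genes. Its log2 ratio in Sertoli marker barcodes ran from 1.42 to 2.85 under the other settings. The difference was not tested.

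Barcodes over the mitochondrial limit, which no comparison used, held Sertoli markers. In the cKO library 766 of them met the rest of the rule, and in the control library 593. They held 6066 CPM of Sertoli markers outside the rule in the cKO and 5106 CPM in the control library. Elongating spermatid markers took 2.63% of their UMIs in cKO and 5.396% in control. Mitochondrial genes took 21.9% in cKO and 21.0% in control.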

How the results depend on the processing

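Log2 ratios of cKO over control kept their sign for the barcode share and the spermatid RNA under every setting run. The barcode share gave 0.81 from 1000 UMIs up, 0.74 with 4 or more rule genes and 0.52 with a mitochondrial share up to 20%. Spermatid RNA gave -1.01 with 4 rule genes, -0.93 at 5 times the pooled share, -0.98 from 1000 UMIs up, -0.92 with a mitochondrial share up to 5%, -0.97 up to 20%, -0.88 under 2500 UMIs, -0.97 at 12 times and -0.86 when thinned to 500 UMIs.

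Of all measured genes, those 2-fold higher and lower in cKO numbered 618 and 90 under 2500 UMIs, 451 and 55 when thinned, 715 and 380 by median of ratios, 602 and 533 on the Sertoli-enriched scale, 2494 and 286 with 20 or more UMIs and 3779 and 700 with 1 UMI in each library; at 12 times 855 were higher. Sertoli-enriched genes 2-fold higher numbered 104 under 2500 UMIs, 76 when thinned, 122 by median of ratios, 100 on the Sertoli-enriched scale, 383 with 20 or more UMIs and 523 with 1 UMI in each library. Those 2-fold lower numbered 9 by median of ratios, 10 on the Sertoli-enriched scale, 12 and 37 with the looser filters, 8 at 5 times, 7 at 12 times, 2 and 11 with mitochondrial limits of 5% and 20%, and 8 without the 50 most abundant genes. The cause was not tested.

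Of the 81 named genes and 6 list medians past 2-fold, signs turned for 2 genes and 2 medians, in 5 values: the macrophage list median, -0.78 with a mitochondrial share up to 5% and -0.075 under 2500 UMIs, the early spermatocyte list median, -0.20 under 2500 UMIs, Ctsd, -0.011 when thinned, and Dmc1, -0.15 when thinned. Of those under 2-fold, nearer 0, signs turned under at least 1 setting for 85 of 167 genes and 11 of 23 list medians. The settings of 20% mitochondrial share, under 2500 UMIs, 12 times and leaving out the richest barcode of each gene were chosen after seeing the data. Subtracting spermatid RNA was not run: the amount set by spermatid markers came to 1.38 times the other-barcode level in cKO and 1.71 times in control, more than all UMIs. No paired analysis was possible because the labels give no replicate numbers and each genotype has 1 library. Depth limits genes with few control UMIs, whose intervals span several fold.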

Other observations

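Germ cell markers in the Sertoli marker barcodes differed from list to list. Of 6 measured early spermatocyte markers 3 were 2-fold or more higher in cKO barcodes: the synaptonemal complex gene Sycp1 with 1241 UMIs in cKO and 316 UMIs in control barcodes (log2 ratio 1.30), Meiob with 104 cKO and 24 control UMIs (1.44), and the recombinase gene Dmc1 with 107 cKO and 28 control UMIs (1.26). The share of all measured genes called higher was 13.5%. On the Sertoli-enriched scale none of the 6 was called, with only barcodes under 2500 UMIs the list's median was -0.20, and Dmc1 was at -0.15 when thinned. None of 7 mid to late spermatocyte markers was called: Ldhc, the germ cell lactate dehydrogenase gene, had 4762 CPM in cKO and 4814 CPM in control barcodes. Dazl, of the germ line, had 722 cKO and 147 control UMIs (1.62, and 0.60 in the other barcodes).

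Of 4 measured Leydig markers 3 were 2-fold or more higher in cKO barcodes, beside 13.5% of all measured genes, and 3 on the Sertoli-enriched scale. Star, for cholesterol import, had 103 UMIs in 77 cKO barcodes and 7 UMIs in 7 control barcodes (3.21). Cyp17a1 had 80 cKO and 10 control UMIs (2.33), and Cyp11a1 66 cKO and 9 control UMIs (2.20). All 3 were higher in the other barcodes too, by 1.57, 2.05 and 2.17. Alas2, the erythroid haem synthesis gene, was Sertoli-enriched without the globins: it had 134 UMIs in 119 cKO barcodes and 94 UMIs in 87 control barcodes, at 22.6 times the other barcodes in the cKO and 38.5 times in the control library.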
